A study of Mus musculus with 8 samples.

Results

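The enzymes that oxidise, hydrolyse and conjugate drugs, steroids, retinoids and fatty acids were read in the normal cochlea, the hearing organ of the inner ear. A probe set, the group of short probes that reports on 1 transcript of an Affymetrix array, was taken where the array's annotation gave it 1 gene alone and that gene's symbol belonged to the cytochrome P450 (Cyp), aldehyde dehydrogenase (Aldh), UDP-glucuronosyltransferase (Ugt), flavin monooxygenase (Fmo), carboxylesterase (Ces), sulfotransferase (Sult) or epoxide hydrolase (Ephx) families. This gave 195 probe sets of 138 genes, out of 34958 probe sets with a single gene, 18194 genes and 45101 probe sets in all. A further 11 probe sets that name an enzyme of these families together with other genes, most of the Ugt1a cluster among them, were left out, and the P450 reductase gene Por was not analysed here.

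All 8 arrays belong to 1 group, normal cochlea of CBA/CaJ mice, an inbred strain with good hearing. Each array holds the RNA of 1 mouse with its ears pooled, and every mouse had received urethane (300 mg/kg) and a saline perfusion that washes out blood. The material was the soft tissue inside the bony shell, that is organ of Corti, modiolus and spiral ligament. The labels hold no contrast, sex, age or batch, so the data describe which enzymes were measurable and how they varied between mice, whose numbers are only names.

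Cytochromes P450 insert oxygen into fat-soluble molecules, and together with flavin monooxygenases, esterases, epoxide hydrolases and aldehyde dehydrogenases they carry out the first phase of drug metabolism, which sulfotransferases and glucuronosyltransferases complete by attaching a water-soluble group. The liver holds the largest amounts. Outside it many family members have fixed tasks in the body's own chemistry, such as making and breaking down retinoic acid, oxidising sterols or building myelin lipids. In the ear these enzymes are of interest because the organ is exposed to ototoxic drugs and because retinoic acid shapes its development.

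Values are signals in arbitrary units, given as mean ± SD over 8 mice (n = 8), or as the lowest, median and highest mouse. They cannot be set against each other between genes as amounts of RNA, since each probe set has its own brightness. A gene was read by its brightest probe set, those named _x_at being used only as a last resort. A gene counted as above background on an array when its signal exceeded the 95th percentile of a background set, 180 probe sets for 139 genes of olfactory and vomeronasal receptors and unrelated organs, which lay between 44.3 and 74.7. Log2 signals of any pair of arrays correlated at r = 0.945 to 0.960 across probe sets, 0 pairs were identical, and the 3′ to 5′ ratio of Gapdh was 1.47 ± 0.0537. In whole tissue, fewer cells of a type and less RNA per cell cannot be told apart.

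Fewer of these enzymes were above background than of genes at large. Of the 138 genes 41 were above background on all 8 arrays, against 63.1% of all genes measured; 23 were above it on 1 to 7 arrays, against 11.8% of all genes; and 74 were above it on none, against 25.1%. The families differed, and of the aldehyde dehydrogenases 15 of 20 genes were above background on every array. Of 73 P450 genes 16 were above on all arrays and 44 on none. The array's probes for liver enzymes of the Cyp2c subfamily gave 0 of 11 genes above background on any array, and those for Ugt2 enzymes gave 1 of 8 on some arrays only. Genes at the edge of the rule were Sult1c2, whose lowest ratio of signal to the array's threshold was 1.004, Cyp3a13 with 1.25 and Cyp2f2 with 1.31.

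**Figure D1:**
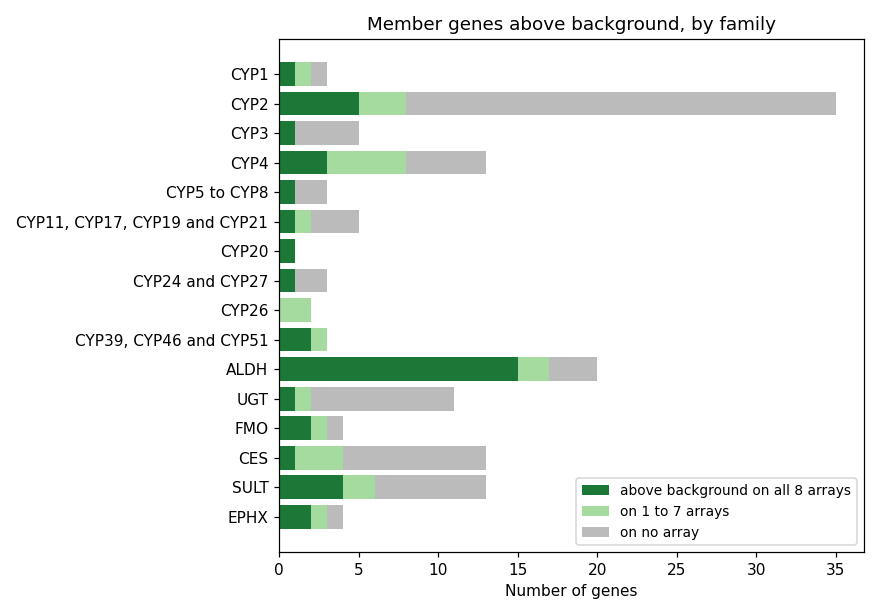
Number of genes of each enzyme family (horizontal axis) that were above background on all 8 arrays (dark green), on 1 to 7 arrays (light green) and on no array (grey). ALDH has 15 of 20 genes in dark green, while CYP2 has 5 of 35 and UGT 1 of 11.

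The CYP1 family reacts to dioxin-like chemicals through the aryl hydrocarbon receptor, and 1 of its 3 genes was clearly measurable. Cyp1b1, which oxidises polycyclic hydrocarbons, estradiol and retinoids, measured 4833 ± 559. Its lowest value was 4196 in mouse 1, its median 4689 and its highest 5698 in mouse 4, so that no mouse stood apart and the SD was 0.16 on the log2 scale. Cyp1a1, the classic induced gene of the receptor, lay between 6.2 in mouse 6 and 49.4 in mouse 5, with a median of 37.2, and exceeded the threshold on 1 array only, that of mouse 1 at 46.9. Cyp1a2, the liver enzyme that breaks down caffeine, measured 7.65 ± 6.50 and was above background on no array.

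Of 10 measured genes of the aryl hydrocarbon receptor and its targets 7 were above background on all arrays and 2 on none, shares near those of all genes (63.1% and 25.1%). The receptor gene Ahr measured 744.9 ± 61.0, its partners Arnt 1405 ± 250 and Arnt2 2015 ± 259, and its targets Tiparp 1487 ± 131 and Nqo1 873 ± 118. The repressor gene Ahrr, itself a target, stayed below background on every array (17.6 ± 3.51). The promoters of Cyp1b1 and Cyp1a1, shown because one gene was measurable in every mouse and the other hardly in any, each hold 1 copy of GCGTG, the core of the receptor's binding site. They run from 250 bases before to 50 after the start of transcription (RefSeq, GRCm38.p6), with the match in capitals.
Cyp1b1, chr17:79715012-79715311, minus strand: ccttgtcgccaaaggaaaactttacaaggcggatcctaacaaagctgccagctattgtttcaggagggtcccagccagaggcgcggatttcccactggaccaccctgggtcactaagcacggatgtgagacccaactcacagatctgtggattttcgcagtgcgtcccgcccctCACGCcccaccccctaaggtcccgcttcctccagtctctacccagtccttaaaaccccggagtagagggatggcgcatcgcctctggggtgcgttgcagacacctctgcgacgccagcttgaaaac
Cyp1a1, chr9:57697363-57697662, plus strand: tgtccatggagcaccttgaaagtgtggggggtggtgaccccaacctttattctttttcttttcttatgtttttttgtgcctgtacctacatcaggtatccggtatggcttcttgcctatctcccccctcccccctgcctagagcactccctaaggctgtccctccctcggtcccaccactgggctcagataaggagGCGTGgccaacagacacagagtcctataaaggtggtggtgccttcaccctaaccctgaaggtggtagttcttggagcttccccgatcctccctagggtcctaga
The match lies 76 bases before the start in Cyp1b1, read on the opposite strand, and 54 bases before it in Cyp1a1. GCGTG on either strand is common, being found in 27 of 117 promoters of these enzymes (23.1%) and in 32.4% of 32851 promoters in all, and a match is a description only.

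Drug-metabolising P450s of the CYP2 and CYP3 families were mostly below background. In CYP2, 5 of 35 genes were above it on all arrays, 3 on some and 27 on none. Cyp2d22, a mouse relative of the human drug enzyme CYP2D6, measured 1771 ± 178, and the other 7 Cyp2d genes were above background on no array. Cyp2j6 and Cyp2j9 measured 1523 ± 169 and 495 ± 87.0, and Cyp2s1, an enzyme found mainly outside the liver, 261 ± 57.4. Cyp2f2, an enzyme of airway club cells, measured 479 ± 837, an SD above its mean, because of 1 mouse described further on. Cyp2u1, a fatty acid hydroxylase, was above background on 6 arrays (89.4 ± 24.2), and Cyp2b10 and Cyp2e1 on 1 each. Genes above on no array began, in alphanumeric order, with Cyp2a12, Cyp2b13, Cyp2b19 and Cyp2b9. In CYP3, which in liver handles a large share of drugs, Cyp3a13 measured 97.8 ± 18.5, while Cyp3a11, Cyp3a16, Cyp3a25 and Cyp3a44 stayed below background on every array.

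Of 8 measured xenobiotic and sterol nuclear receptors, which include the inducers of these enzymes in liver, 2 were above background on no array, a share near that of all genes (25.1%). They were the pregnane receptor Nr1i2 (5.27 ± 5.08) and the constitutive androstane receptor Nr1i3 (9.79 ± 5.79). The 3 above it on every array were the liver X receptor Nr1h3 (216 ± 19.3), Ppard (116 ± 28.1) and the vitamin D receptor Vdr (665 ± 160.1), while Ppara was above it on 7 (80.6 ± 9.48). Of the electron donors that P450 enzymes draw on, 4 of 4 measured genes were above background on all arrays, against 63.1% of all genes. They were the cytochrome b5 genes Cyb5a (4861 ± 188) and Cyb5b (4006 ± 290.3), the reductase Cyb5r3 (1622 ± 179) and the mitochondrial donor Fdx1 (856 ± 218). The donors Por and Fdxr were not among the genes measured.

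Among the CYP4 fatty acid hydroxylases 3 of 13 genes were above background on all arrays. Cyp4v3, the mouse counterpart of the human gene mutated in Bietti crystalline dystrophy of the eye, measured 936 ± 125, Cyp4f16 293 ± 36.9 and Cyp4f13 160.6 ± 26.5. A further 5 genes were above it on 1 or 2 arrays (Cyp4a12a, Cyp4b1, Cyp4f15, Cyp4f39 and Cyp4x1), and 5 on none, such as Cyp4a14, Cyp4a31, Cyp4f14 and Cyp4f18.

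Several P450s that act on sterols were above background on every array. Cyp51, the lanosterol demethylase of cholesterol synthesis, measured 1088 ± 154, and the oxysterol hydroxylases Cyp39a1 and Cyp7b1 measured 1871 ± 239 and 573 ± 42.8. Cyp7b1 was among the steadiest of the enzymes, with 524 in its lowest mouse, 568 at the median and 642 in its highest. Cyp27a1, a mitochondrial sterol hydroxylase, measured 374 ± 60.5. Cyp46a1, which hydroxylates cholesterol in neurons of the brain, was above background on 2 arrays (58.4 ± 17.1). The bile acid enzymes Cyp7a1 and Cyp8b1 were above it on none, and neither were Cyp24a1 and Cyp27b1, which inactivate and activate vitamin D. Cyp20a1, an enzyme of unknown substrate, measured 1733 ± 297. In steroid hormone synthesis, Cyp11a1, which cuts the side chain of cholesterol at the start of the pathway, measured 341 ± 52.1. The adrenal hydroxylase Cyp21a1 was above background on 6 arrays (67.0 ± 24.3), while Cyp11b1, Cyp11b2 and Cyp17a1 were above it on none.

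Retinoic acid is made by ALDH1A enzymes from retinaldehyde and broken down by CYP26 enzymes, and both sides of this balance were found in the tissue. Of 19 measured genes of retinoid metabolism, binding and reception, 13 were above background on all arrays, 4 on some and 2 on none. The shares of all genes were 63.1%, 11.8% and 25.1%. Aldh1a1 measured 3387 ± 397, with 2952 in its lowest mouse, 3258 at the median and 4230.3 in mouse 5. Aldh1a2, known from the meninges and from embryonic mesoderm, measured 881 ± 95.1, with 763 in mouse 5, 888 at the median and 993 in mouse 1. Its spread was small, at 0.16 on the log2 scale. Aldh1a3 measured 630.4 ± 233 and varied far more than its relatives, with 246 in mouse 6, 635 at the median and 1086 in mouse 4. The retinaldehyde reductase Dhrs3, which lowers the supply of substrate, measured 4117 ± 580.2, and the retinol dehydrogenase Rdh10, which makes it, 598 ± 46.3. The binding protein Crabp2 measured 1186 ± 201. The receptors Rarb, Rarg, Rxra and Rxrb were above background on all arrays, whereas Rara and the esterifying enzyme Lrat were above it on none.

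The breakdown enzymes Cyp26a1 and Cyp26b1 were close to the threshold and shared their lowest mouse. Cyp26a1 measured 24.6 in mouse 8 against 69.6 to 127.9 in the other 7, and was above background in those 7 only. Cyp26b1 measured 42.7 in mouse 8 against 64.9 to 120.3 in the other 7, and was above background in 6 of them, mouse 5 being the exception. Each has 1 probe set, so that no other probe set bears on these values. Of the 10 retinoid genes outside these families that were above background on all arrays, 3 were also lowest in mouse 8, a share to be read against the 19.2% of all genes above background that were lowest there. They were the plasma carrier Rbp4 (759.6 in mouse 8 against 1263 to 1673 in the others), the receptor Rarb (335 against 403 to 536) and Dhrs3 (3505 against 3693 to 5362). Others of the list were not low there: the binding protein Crabp2 and the retinol transporter Stra6 were lowest in mouse 5, and the receptor Rarg measured 735.5 in mouse 8 with a median of 666. The enzymes of all families were lowest in mouse 8 for 12 of 41 genes (29.3%).

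Because they shared their lowest mouse, the promoters of the CYP26 genes are shown for comparison, with matches to AGTTCA, a motif of retinoic acid receptors, in capitals (RefSeq, GRCm38.p6).
Cyp26a1, chr19:37697558-37697857, plus strand: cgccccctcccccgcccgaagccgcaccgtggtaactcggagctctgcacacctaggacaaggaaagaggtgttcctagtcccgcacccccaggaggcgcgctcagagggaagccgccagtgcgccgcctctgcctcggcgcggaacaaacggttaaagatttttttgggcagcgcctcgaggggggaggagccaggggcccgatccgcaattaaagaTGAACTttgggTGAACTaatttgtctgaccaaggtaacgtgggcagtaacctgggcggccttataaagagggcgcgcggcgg
Cyp26b1, chr6:84593761-84594060, minus strand: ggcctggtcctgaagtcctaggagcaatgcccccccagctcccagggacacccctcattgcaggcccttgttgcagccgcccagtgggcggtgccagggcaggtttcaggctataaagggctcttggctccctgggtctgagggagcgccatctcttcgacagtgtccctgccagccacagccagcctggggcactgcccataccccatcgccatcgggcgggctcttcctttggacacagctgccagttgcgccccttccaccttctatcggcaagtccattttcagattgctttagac
Cyp26a1 holds 2 matches, 32 and 21 bases before the start and both on the opposite strand, which together form a direct repeat of AGTTCA with 5 bases between the copies. This repeat, searched on both strands, was found in 8 of 32851 promoters (0.0244%), and among the 117 promoters of these enzymes in that of Cyp26a1 alone. A single AGTTCA, which the repeat contains, occurred in 13.7% of the enzymes' promoters and 14.0% of all, and the related AGGTCA in 24.8% and 16.3%. Neither motif is in this window of Cyp26b1.

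The aldehyde dehydrogenases of intermediary metabolism were above background almost throughout. Aldh2, which clears acetaldehyde and lipid aldehydes in mitochondria, measured 4728 ± 599, with 4085 in mouse 7, 4550.05 at the median and 5999.7 in mouse 1. Enzymes of amino acid breakdown included Aldh6a1 of the valine pathway (3100.3 ± 304), Aldh7a1 of lysine (2072 ± 319), Aldh5a1 of the transmitter GABA (1115 ± 71.8) and Aldh4a1 of proline (129 ± 17.7). Aldh5a1 had the smallest spread of the 41 enzymes, 0.09 on the log2 scale. Aldh9a1, which takes part in carnitine synthesis, measured 2877 ± 218, Aldh18a1 of proline synthesis 164 ± 34.2, and the folate enzyme Aldh1l1 516 ± 108. Its mitochondrial relative Aldh1l2 was above background on 5 arrays. The fatty aldehyde dehydrogenase Aldh3a2, mutated in human Sjögren-Larsson syndrome, measured 2127 ± 474, the corneal enzyme Aldh3a1 570.35 ± 120, Aldh3b1 167 ± 44.0 and Aldh16a1 124 ± 27.5. Aldh1a7 was above background on 1 array, and Aldh1b1, Aldh3b2 and Aldh8a1 on none.

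Of the hydrolases and flavin monooxygenases, 1 of 13 carboxylesterases, 2 of 4 epoxide hydrolases and 2 of 4 flavin monooxygenases were above background on all arrays. The carboxylesterase Ces1d, which also hydrolyses stored lipid, measured 5365 ± 682, with 4690.4 in mouse 4, 5104 at the median and 6774 in mouse 5. Of the other carboxylesterases Ces2g was above background on 7 arrays, Ces2f on 3 and Ces1e on 1, and 9 were on none, beginning with Ces1c, Ces1f, Ces1g and Ces1h. The microsomal epoxide hydrolase Ephx1 measured 4433 ± 391, with 3965 in mouse 7, 4373 at the median and 5296 in mouse 1. The soluble enzyme Ephx2, which acts on epoxides of arachidonic acid, measured 450.2 ± 95.2. Ephx4 was above background on 6 arrays and Ephx3 on none. Fmo1 and Fmo5 measured 155 ± 152 and 215 ± 31.3, Fmo2 was above background on 5 arrays and Fmo4 on none.

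Most conjugating enzymes of these families were above background on no array. The phenol sulfotransferase Sult1a1 measured 1726 ± 200.2, with 1427 in mouse 8, 1729.9 at the median and 2052 in mouse 1. Sult5a1 measured 1190.25 ± 216 and Sult1c2 85.2 ± 17.9. Sult4a1, a sulfotransferase of neurons in the brain, measured 728 ± 242, with a wide range taken up further on. Sult6b1 was above background on 4 arrays, Sult1c1 on 1, and 7 of 13 genes on none, including Sult1b1, Sult1d1, Sult1e1 and Sult2a2. Of 11 glucuronosyltransferase genes the sole one above background on all arrays was Ugt8a, which is not a drug enzyme but adds galactose to ceramide in myelin-forming cells. It measured 1092 ± 173, with 883 in mouse 3, 1101 at the median and 1438 in mouse 4. Ugt2b37 was above background on 2 arrays, and Ugt2a3, Ugt2b1, Ugt2b34 and Ugt2b35 were among 9 on none.

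Conjugating enzymes outside these families were mostly above background. Of 20 measured genes of glutathione, acetyl and methyl transfer and of donor synthesis, 17 were above background on all arrays (63.1% of all genes were) and 0 on none (25.1% of all genes). They included the glutathione transferases Gstp1 (7372 ± 1161), Gsta4 (15906 ± 1355) and Gstm5 (5033 ± 591) and the microsomal Mgst1 (3599.6 ± 568). Papss1, which makes the sulfate donor of sulfotransferases, measured 2670 ± 277, and Ugdh, which makes the glucuronic acid donor, 2898 ± 159.5.

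**Figure D2:**
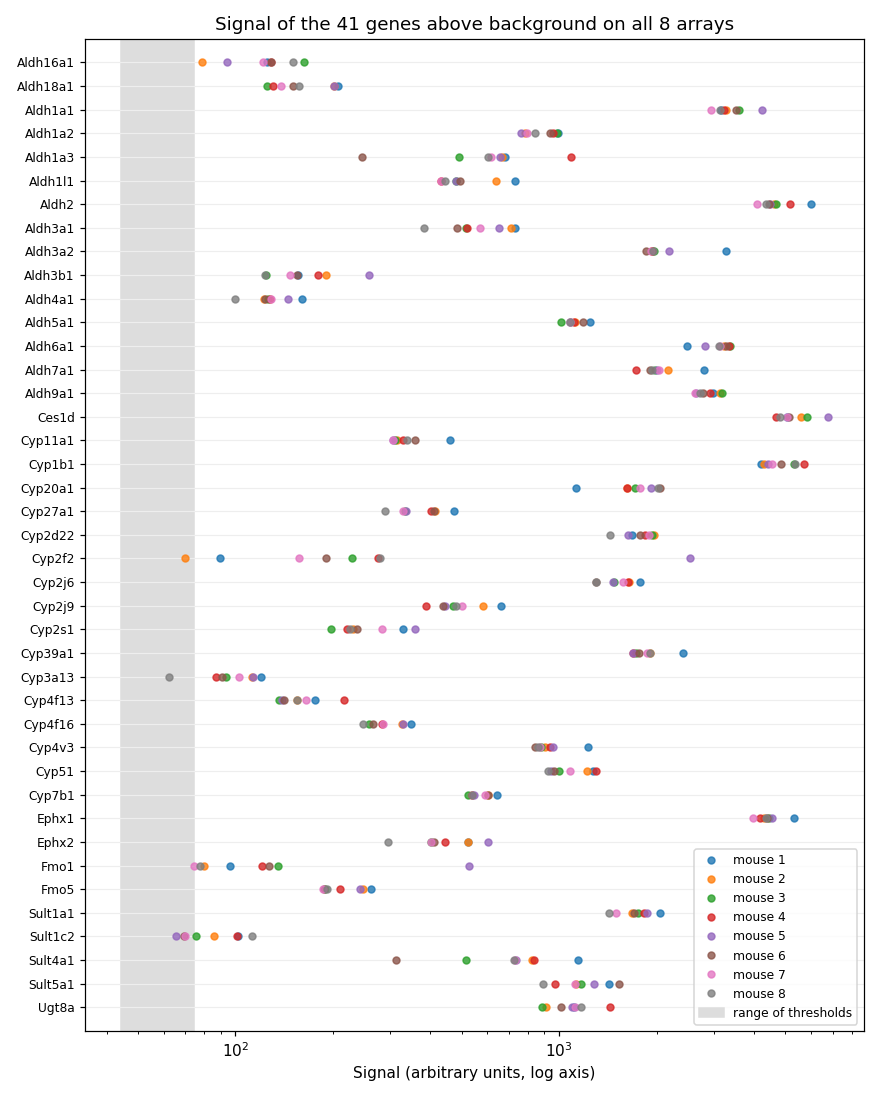
Signal (horizontal log axis, arbitrary units) of the 41 enzymes above background on all 8 arrays, 1 row per gene and 1 coloured point per mouse, with the range of the background thresholds, 44.3 to 74.7, in grey. Cyp2f2 and Fmo1 have mouse 5 far to the right of the other mice, and Aldh1a3 and Sult4a1 have mouse 6 to the left. Rows do not compare with each other as amounts of RNA.

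The enzymes varied somewhat more between mice than genes at large. The median SD of the 41 genes was 0.21 on the log2 scale, against 0.18 over the 11481 genes above background, and 18 of the 41 had an SD under 0.2, against 58.0% of those genes. An SD over 0.5 was found in 4 of them, against 2.72% of all genes above background, namely Cyp2f2 (1.57), Fmo1 (0.92), Aldh1a3 (0.60) and Sult4a1 (0.56). The next was Aldh3b1 at 0.35, with 124 in mouse 8, 156 at the median and 259 in mouse 5. Aldh16a1 ranged from 78.6 in mouse 2 over a median of 126.6 to 163 in mouse 3, and Ephx2 from 297 in mouse 8 over 427 to 602 in mouse 5. Aldh3a1 ranged from 383 in mouse 8 over 543 to 731 in mouse 1, and Cyp2s1 from 197 in mouse 3 over 234 to 358 in mouse 5. Cyp3a13 ranged from 62.4 in mouse 8 over 97.8 to 119.9 in mouse 1, and Sult1c2 from 65.3 in mouse 5 over 80.7 to 113 in mouse 8. Aldh18a1 ranged from 125 in mouse 3 over 154 to 208 in mouse 1. A brighter _x_at probe set of Aldh18a1 gave the opposite order, being lowest in mouse 1 (272) and highest in mouse 3 (432). Of the 12 most variable enzymes 4 were lowest in mouse 8.

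**Figure D3:**
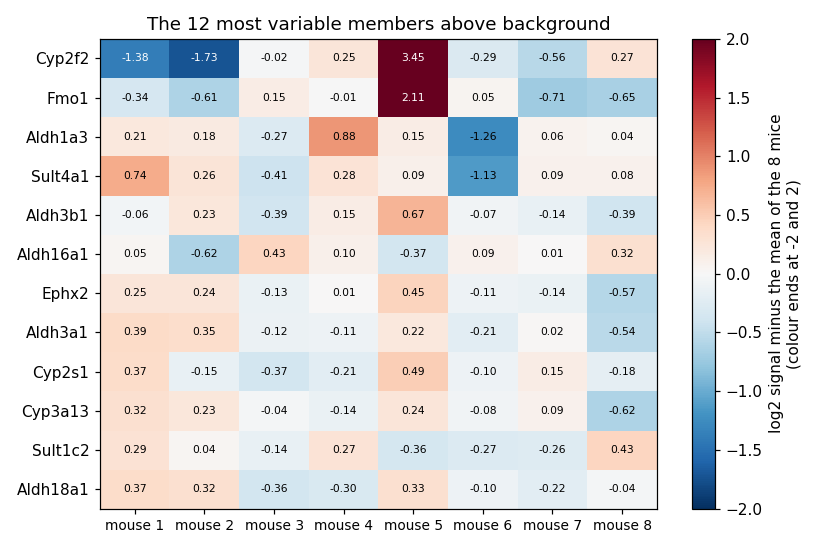
Log2 signal minus the mean of the 8 mice (colour, printed in each cell) for the 12 enzymes with the largest SD among the 41 above background, 1 column per mouse. Cyp2f2 and Fmo1 are high in mouse 5, and Aldh1a3 and Sult4a1 low in mouse 6.

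Mouse 5 stood apart for a group of P450s and flavin monooxygenases. Cyp2f2 measured 2543 in mouse 5 against 70.1 to 279 in the other 7, with a median of 189.9 in those. Fmo1 measured 528 in mouse 5, against 74.4 to 135 with a median of 96.3 in the others. The values of mouse 5 do not overlap with those of any other mouse, and without it the SD of Cyp2f2 was 0.79 and that of Fmo1 0.37 on the log2 scale. Cyp4b1, an enzyme of lung epithelium, measured 376 in mouse 5 against 17.5 to 81.7 in the others. Cyp2b10, a phenobarbital-induced gene in liver, measured 368 against 1.5 to 46.5, all 7 of the others being below background. It was highest in mouse 5 with each of its 3 probe sets, 2 of which are of the kind that can also bind close relatives of the gene. Cyp4a12a measured 197 against 5.7 to 38.4, and Fmo2, the monooxygenase of lung, 191 against 39.9 to 87.1, with mouse 5 highest in 4 of its 5 probe sets.

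These 6 genes exceeded every other mouse, and the threshold, by more than 2-fold, which 1.74% of all genes above background in mouse 5 did. Cyp2b10 and Cyp4a12a were above background on that array alone, so that they entered through the value itself and the count is a description. None of the enzymes exceeded all other mice in this way in mice 1 to 4 or 6 to 8. Of all genes above background hardly any did so in those mice, at most 0.0945% (mouse 8). Measured against the higher of the threshold and the next mouse, the signal of mouse 5 was at least 9.10-fold higher for Cyp2f2, 4.93-fold for Cyp2b10, 4.60-fold for Cyp4b1, 3.90-fold for Fmo1, 2.64-fold for Cyp4a12a and 2.19-fold for Fmo2. Mouse 5 was also the sole mouse above background for Ces1e (128 against 17.3 to 38.0), the ethanol-oxidising Cyp2e1 (87.8 against 1.7 to 31.2) and Sult1c1 (74.6 against 1.0 to 4.2). Outside these families, mouse 5 was also highest for the retinoid-binding protein Crabp1 (351 against 23.5 to 63.1) and the glutathione transferase Gsto1 (720.3 against at most 252). Most genes of their lists did not follow. Among those outside these families and above background on all arrays, 0 of 10 retinoid and 2 of 17 phase 2 genes were highest in mouse 5, against 8.27% of all genes. These counts leave out genes below background on some or all arrays. Of those, Crabp1, Mgst2 (275.6 against at most 83.9) and Nat1 (67.7 against at most 67.6) were highest in mouse 5. Lrat, Nnmt, Rara and Rxrg were not.

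Markers of other tissues moved with them in the same mouse. The summed signal of 14 genes of motile cilia and airway epithelium was 31127 in mouse 5 against 1500 to 7909 in the other mice, and 13 of the 14 were highest in mouse 5. Among its secretory members, Bpifa1 measured 18387 in mouse 5 against at most 7395, Reg3g 715 against at most 23.9 and Scgb3a2 315 against at most 87.8. The club cell secretoglobin Scgb1a1 was above background on no array, and Bpifb1 likewise. The summed signal of 6 adipocyte genes was 9210 in mouse 5 against 204 to 1428 in the others, all 6 being highest in mouse 5. Fabp4 measured 5517 in mouse 5 against at most 914, Ucp1 2378 against at most 237 and Adipoq 1026 against at most 234, while Lep and Retn were above background on no array. Both lists were made after the values of mouse 5 were seen. The sum of 10 skeletal muscle genes was 16368 in mouse 5 against 3533 to 6839 in the others, with 7 of 10 highest in mouse 5. Of 9 hepatocyte genes 7, Alb among them, stayed below the threshold in every mouse. The sum of this list was 2639 in mouse 5 against 3169 to 4792 in the others, nearly all of it the signal of Ttr (2461 against 3025.5 to 4609). The part of these tissues in the signals of Cyp2f2, Cyp4b1, Cyp2b10, Cyp4a12a, Fmo1 and Fmo2 was not tested.

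**Figure D4:**
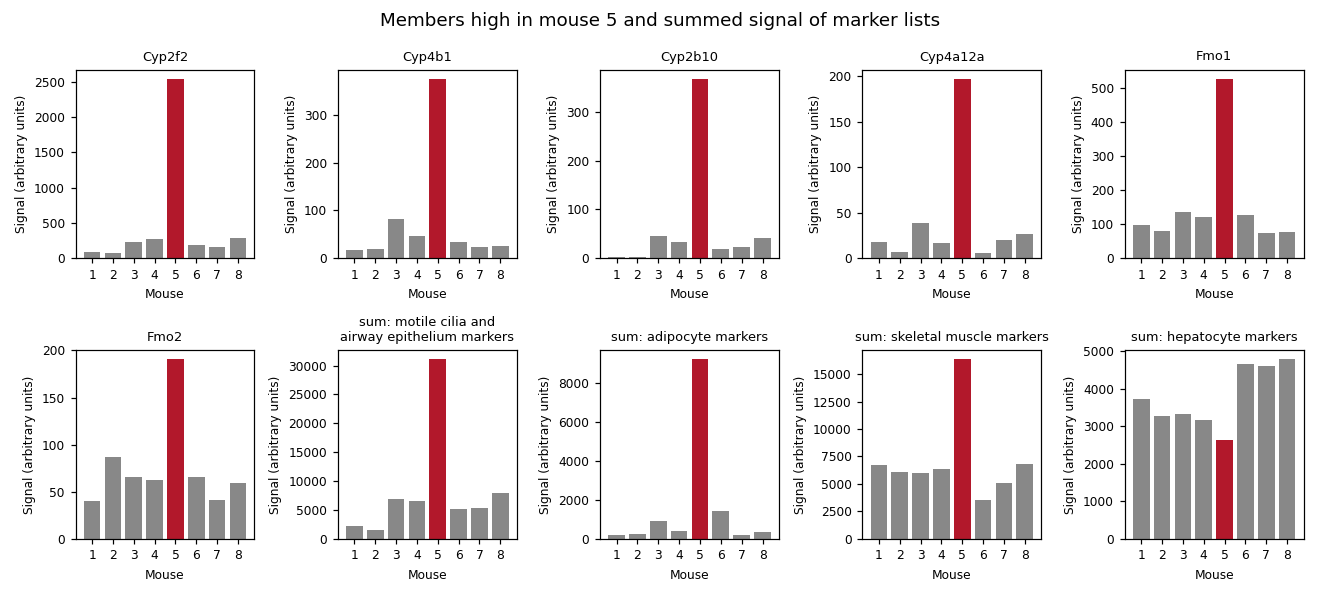
Signal (arbitrary units, axes from 0) of 6 enzymes in each mouse, and the summed signal of 4 marker lists, with mouse 5 in red and the other 7 mice in grey. Mouse 5 is the highest bar for the 6 enzymes and for the cilia and airway, adipocyte and muscle lists, and the lowest for the hepatocyte list, whose sum is nearly all Ttr.

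Mouse 6 was low for an aldehyde dehydrogenase and a sulfotransferase. Aldh1a3 measured 246 in mouse 6 against 489 to 1086 in the other 7, and a second probe set was also lowest there, at 46.9 (below background) against 62.7 to 144.6, while the third was not. Sult4a1 measured 313.5 in mouse 6 against 517 to 1146 in the others. Its other probe set was below background on every array and shows no order of the mice. Without mouse 6 their SDs were 0.35 and 0.34 on the log2 scale. Neuronal markers moved the same way: 9 of 12 spiral ganglion neuron genes were lowest in mouse 6, and their summed signal was 13527 there against up to 33412 in the other mice. Mouse 1 had the highest sum of these markers as well as the highest Sult4a1. Other lists were high in mouse 6 too, but not there alone. The sum of 12 central nervous system genes was 10138 in mouse 6, 10278 in mouse 1 and 5225 to 5949 in the other 6. Of the 6 above background on all arrays, Gfap and Aqp4 were highest in mouse 6. Calb1 was lowest there (101.7 against 161.7 to 279.2), and Slc1a2, Pcp2 and Cbln1 lay within the range of the other mice. Mouse 6 had the highest sums of erythroid (17949, next 16864 in mouse 3) and osteoblast genes (11609, next 10998 in mouse 3). The part of cell content in these values was not tested.

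Mouse 1 was the highest mouse for 22 of the 41 enzymes (53.7%), against 33.8% of all genes above background. Its median difference from the mean of the other 7 mice was 0.29 on the log2 scale over the enzymes and 0.06 over all genes above background. Of the aldehyde dehydrogenases 9 of 15 were highest there, and of the P450s 9 of 16. For some of the 22 another probe set was above background on all arrays, and the order of the mice depended on it. Such a probe set was highest in mouse 1 for Aldh2 (3887, but not its others) and Aldh7a1 (299). It was lowest there for Aldh18a1 (272), Cyp7b1 (284) and Fmo5 (90.5), and neither for Cyp2j6 and Cyp4v3. Aldh3a2 measured 3276 in mouse 1 against 1853 to 2187 in the other 7, and its SD of 0.27 became 0.07 on the log2 scale without that mouse. Aldh7a1 measured 2799 against 1731 to 2169, Cyp39a1 2420 against 1692 to 1906, and Ephx1 5296 against 3965 to 4531. Cyp20a1 went the other way, with 1125 in mouse 1 against 1624 to 2055 in the others. Of the phase 2 genes outside these families 10 of 17 were highest in mouse 1. The array of mouse 1 also had the lowest background threshold (44.3) and the highest Gapdh ratio (1.54, against 1.39 to 1.52 on the others). Its sums of neuronal, central nervous system and marginal cell markers were the highest of the 8. So were its sums of spiral ligament fibrocyte, Schwann cell, leptomeninx and fibroblast, and endothelial markers, while that of osteoblast genes was the lowest. The part of these measures in the enzymes' values was not tested.

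Separate probe sets of a gene measure the same RNA, so that their agreement across mice bears on whether differences between mice are repeatable on the array. The 2 brightest probe sets above background could be compared for 14 of the enzymes and for 4959 genes in all, by a one-sided exact permutation test over all pairings of the 8 mice with Benjamini-Hochberg adjustment over the 4959. Of the 14 enzymes 4 agreed, against 11.2% of all genes tested, and the median r was 0.33 over the enzymes and 0.34 over all genes. At an unadjusted exact p below 0.05 there were 5. For Cyp20a1 r was 0.93 (adjusted exact p = 0.0456, Spearman's rho 0.79 with an exact p of 0.0140), with mouse 1 lowest in both probe sets. For Aldh2 r was 0.90 (adjusted exact p = 0.0484, rho 0.74 with an exact p of 0.0229), and for Ces1d 0.87 (adjusted exact p = 0.0284, rho 0.81 with an exact p of 0.0109). For Cyp1b1 r was 0.83 (adjusted exact p = 0.0315, rho 0.93 with an exact p of 0.00112). Without the 2 mice farthest from the median, r was 0.71 for Cyp20a1, 0.83 for Aldh2, 0.69 for Ces1d and 0.70 for Cyp1b1. Aldh2 and Ces1d had a further bright probe set that did not follow these 2. That of Aldh2 ranged only from 2377 in mouse 4 to 2521 in mouse 7, with 2425 in mouse 1. That of Ces1d was lowest in mouse 1 (472 against 792 to 1260 in the others), with 1202 in mouse 5. At the other end, the probe sets of Cyp7b1 correlated at -0.51 and those of Fmo5 at -0.33. With 7 mice in place of 8 the number that agreed was at most 2.

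**Figure D5:**
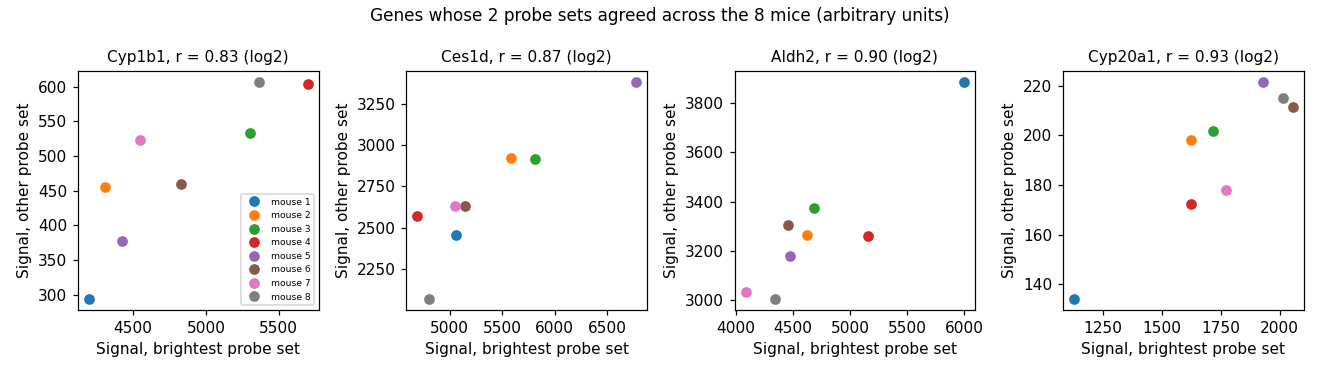
Signal of the second probe set (vertical axis) against the brightest probe set (horizontal axis), both in arbitrary units on axes that do not start at 0, for the 4 enzymes whose probe sets agreed, with 1 point per mouse. Mouse 1 is at the lower left for Cyp20a1 and Cyp1b1 and at the upper right for Aldh2, and mouse 5 at the upper right for Ces1d.

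The variation of each enzyme was set against 14 marker scores of cochlear and neighbouring cell types, a score being the mean log2 deviation of the markers above background, and against 2 technical measures, the background threshold and the Gapdh ratio. Over 183696 gene and score pairs 0 passed a two-sided exact permutation test after Benjamini-Hochberg adjustment, while 11079 (6.03%) had an unadjusted exact p below 0.05. Among the 656 pairs with an enzyme of these families 46 had one (7.01%). The relations below are therefore values that failed the correction. Sult4a1 followed the spiral ganglion neuron score at r = 0.98 (exact p = 7.44e-05, adjusted exact p = 0.396, rho 0.98 with an exact p of 0.000397), and r was 0.84 without the 2 mice farthest from the median score. Aldh1a3 followed the same score at r = 0.90 (exact p = 0.00734, adjusted exact p = 0.723, rho 0.95 with an exact p of 0.00114; r = 0.89 without the farthest 2), but r was 0.66 without mouse 6.

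Aldh1a2 followed the score of leptomeninx and fibroblast genes, the tissue it is known from, at r = 0.97 (exact p = 0.00067, adjusted exact p = 0.575, rho 0.95 with an exact p of 0.00114; r = 0.98 without the 2 farthest mice). Of the 12 markers of that list 11 were above background on all arrays, and their summed signal ranged from 21561 to 28106. Aldh2 followed the score of strial marginal cells at r = 0.97 (exact p = 0.000174, adjusted exact p = 0.409, rho 0.95 with an exact p of 0.00114; r = 0.91 without the 2 farthest), though r was 0.59 when the mean of all its probe sets was used. Mouse 1 had the highest sum of both marker lists. Ugt8a and the Schwann cell and myelin score gave r = 0.72 (exact p = 0.0428, adjusted exact p = 0.820 in the permutation test). Over the 41 enzymes the median r with the marginal cell score was 0.50, the largest of the 16 scores and measures, against 0.13 over all genes above background. An unadjusted exact permutation p below 0.05 with this score was found for 8 of the 41 enzymes and 2141 of all 11481 genes. For the Gapdh ratio the median r was 0.29 over the enzymes against 0.02 over all genes, and for the background threshold -0.32 against -0.08.

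The genes whose pattern over the 8 mice was most like that of Cyp1b1 and Aldh1a2 were sought among 11480 others. None of the 22960 pairs passed the two-sided exact permutation test after adjustment, the smallest adjusted p being 0.207, and 2921 (12.7%) had an unadjusted exact p below 0.05, 2501 of them with Cyp1b1 (21.8%) and 420 with Aldh1a2 (3.66%). The 5 with the highest r to Cyp1b1 were Arcn1 (0.97), Serinc3 (0.95), Cox6c (0.95), Norad (0.95) and Smarca2 (0.94). Those most like Aldh1a2 were Rhoa (0.99), the organic anion transporter Slc22a8 (0.96), Frrs1 (0.94), Wls (0.92) and Lzts1 (0.92). Under quantile normalization 0 of the 5 genes for Cyp1b1 and 4 of the 5 for Aldh1a2 were again among the first 5. Cyp1b1 and Aldh1a2 correlated with each other at r = 0.39 (exact permutation p = 0.317, rho 0.19 with an exact p of 0.665, r = 0.42 without the 2 farthest mice).

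The promoters of these enzymes are poor in CpG dinucleotides, also where the gene was measurable. The ratio of observed to expected CpG in the 300 bases around the start had a median of 0.39 in the 30 enzymes with a promoter in RefSeq among those above background on all arrays, against 0.75 over all such genes. It was 0.13 in 55 enzymes above background on no array, against 0.28 over all such genes, and 0.23 in 18 enzymes above it on some arrays. A ratio over 0.6 was found in 10 of the 30 (33.3%), against 71.8% of all genes above background on all arrays. Cyp1b1, at 0.64, and Aldh1a2, at 1.11, were among the 10, while Aldh1a1 had 0.14.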

How the data were processed

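RNA of the cochlear soft tissue of 8 mice was measured on Affymetrix Mouse Genome 430 2.0 arrays. The authors deposited linear intensities, 1 per probe set and array; MAS5 is the tool that the submitters' processing notes name, with no version. Each array had been scaled by the authors, since the trimmed mean of intensities (2% off each end) was 500.002 on every array. All arrays were used, and 0 further columns exist. All samples form 1 group, so no contrast was tested.

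Genes were named from the platform annotation, and all 138 enzymes matched RefSeq by Entrez identifier with 0 changed symbols. A gene was read by its brightest probe set (_x_at only as a last resort), on the log2 scale after raising signals under 1 to 1. Of the 139 background genes 4 were above background on all arrays. Genes were named by rule: every enzyme above background, up to 4 per family of those that were not, the 12 with the largest SD, up to 4 genes of each pathway list, and the 5 most like Cyp1b1 and Aldh1a2. Ahr, Ahrr, Nr1i2, Nr1i3, Rdh10, Rarb, Rarg, Rxra, Rxrg, Rara, Lrat, Crabp1, Stra6, Gsto1, Mgst2, Nat1, Nnmt, Papss1, Ugdh and the cell type markers are outside it and were picked with their values known. The members and lists were chosen with earlier results of these data known. The p-values of probe set pairs, marker scores and likeness come from exact permutation of the mice, adjusted over all genes tested; the labels call the arrays replicates, so these p-values cover the spread between mice and arrays together. The scripts were tested on simulated data. Alternatives were other normalizations, thresholds and probe set rules, and leaving out each mouse. Promoters and start sites came from RefSeq (GRCm38.p6) for 103 of the enzymes. No depth applies to arrays, and their number limits the precision. Software was Python 3.11.15, scipy 1.17.1, numpy 2.4.6, matplotlib 3.10.9 and pandas 2.3.3.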

Additional observations from a re-analysis of the deposited data

Results flagged for a closer look

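For 14 of the enzymes above background on at least 1 array, 1 mouse lay far from the other 7 by Dixon's test, which chance flags in about 1 in 20 groups. Among the 41 enzymes above background on all arrays there were 9, against 12.6% of all genes above background, and in 8 of the 9 it was the high end that stood apart.

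Mouse 1 was the mouse apart for 7 enzymes. It was high for Aldh3a2 (3275.7), Aldh7a1 (2798.5), Cyp11a1 (461.6), Cyp39a1 (2419.8), Cyp4v3 (1228.4) and Ephx1 (5295.8), and low for Cyp20a1 (1124.9). Mouse 5 was high for Cyp2f2 (2542.9), Fmo1 (527.5), Ces1e (127.8) and Sult1c1 (74.6), of which Ces1e and Sult1c1 were above background in that mouse alone. Cyp26a1 was low in mouse 8 (24.6), Cyp1a1 low in mouse 6 (6.2, in one of the 7 mice where it was below background), and Sult6b1 high in mouse 3 (98.2).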

How the results depend on the processing

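The number of enzymes above background on all arrays, 41, was 40 to 50 under the other settings tried, apart from 28 at the 99th percentile of the background probe sets, and their median SD was 0.17 to 0.25 on the log2 scale. The number with an SD over 0.5, 4, became 2 with the mean of all probe sets, 7 at the 90th percentile, 1 at the 99th and 9 when 4 of 8 arrays sufficed, and lay between 2 (without mouse 6) and 5 when each mouse was left out in turn. The 4 enzymes with agreeing probe sets became 0 to 2 with 1 mouse left out, where fewer mice allow no p below 0.000198, and 3 or 4 under the other settings. The 6 enzymes high in mouse 5 were 5 to 7 (6 to 7 with another mouse left out). The exception was the 99th percentile, where 1 (Cyp2f2) still exceeded every other mouse and the threshold by more than 2-fold. No marker score or likeness pair passed under any setting. On the scale of log2(signal + 32), mouse 5 exceeded the mean of the other mice by 2.91 for Cyp2b10, 2.21 for Cyp4a12a and 2.65 for Cyp4b1, against 4.76, 3.66 and 3.61 without the added 32, since most of those values are below background. No paired analysis was possible because the samples form a single group. Nothing was reversed. Probe sets below background give no order of levels, and 8 arrays with 1 probe set per gene in many cases leave the probes' own error unseen.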
